A study of Mus musculus with 9 samples.

Results

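The tripartite motif (TRIM) proteins are a large family of ubiquitin ligases, and their genes were read here in mouse bone marrow-derived macrophages (BMDMs). Members were the symbols of the deposited count table made of Trim, a number and an optional lower-case letter, with the rows of one symbol summed. This rule, which uses no measured value, found 65 genes in 100 rows, out of 24061 symbols in 32850 rows. Polyadenylated RNA was sequenced from 9 cultures, 3 in each of 3 groups. All were BMDMs of female C57BL/6J mice of 8 to 10 weeks, grown for 7 days in L-cell conditioned medium, which supplies macrophage growth factor, and then kept for 1 day without serum. Veh cultures received the solvent DMSO. LPS cultures received DMSO for 3 hr and then 10 ng/mL lipopolysaccharide, the bacterial outer membrane component sensed by TLR4, for 2 hr. T0+LPS cultures received 500 nM T0901317 (T0), a synthetic agonist of the liver X receptors (LXRs), for those 3 hr and then the same LPS with T0 still present. The study gives BMDM cultures as separately differentiated, but does not say whether cultures came from different mice. How long Veh cells waited before harvest is not given in the sources used here, so time in culture and LPS cannot be told apart. There were no cells given T0 without LPS among these libraries.

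A typical TRIM protein carries a RING domain, which recruits a ubiquitin-loaded E2 enzyme, then B-box zinc fingers and a coiled coil through which the protein dimerizes. The carboxy-terminal domain, often a PRY-SPRY domain, picks the substrate. In macrophages the family is best known for innate immunity: members add or remodel ubiquitin chains around the RNA sensors RIG-I and MDA5 and the kinase TBK1, others bind retroviral capsids, and many are induced by interferon in other settings.

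Reads assigned to genes came to between 13299044 and 16467983 per library. Csf1r, Cd68, Lyz2, Fcgr1, Mertk and Cd14 were present among the macrophage markers, and Itgam could not be read, with 3 exon bases that no other row shares. Of 32 markers of other blood and stromal cells, 24 had at least 300 such bases, and 16 of those were at the floor of 3 reads in every library. The sum of each such list stayed at or under 3.42 CPM (reads scaled to the library size, with TMM factors) in every library. With LPS the dendritic sum went from 0.236 to 0.529 CPM in Veh up to 2.22 to 2.89, and the neutrophil sum from 0.759 to 1.36 up to 2.15 to 3.18. Of the macrophage markers, Fcgr1 and Mertk fell by 0.84 and 0.81 on the log2 scale and Cd14 rose by 1.73. Their part in the Trim changes was not tested. LPS raised Il1b from 1.81 to 1135 CPM, and T0 raised its target Abca1 by 1.47 on the log2 scale over LPS alone. Fewer cells of a type and less RNA per cell cannot be told apart in such bulk RNA.

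For the Trim genes, what the table can show is set by how overlapping rows were counted. A base that 2 rows share, including 2 transcripts of one gene, gave no counts: 6696 rows had no base of their own and 0 of them held a read, whereas 16379 of 26154 rows with such a base did. A gene with several listed transcripts is therefore read only from the bases that set them apart. Its level and change are those of these bases, which need not stand for the whole gene. Of the 65 genes, 51 kept at least 300 unshared exon bases and 14 kept fewer. The zeros of the second set say nothing on expression. Trim21, the cytosolic antibody receptor, kept 69 of 2790 bases. Trim24 and Trim33, partners of Trim28 in the TIF1 chromatin family, kept 244 of 6435 and 51 of 8870. Trim26, Trim32 and Trim47 kept 19, 3 and 3 bases and had no read in any library.

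**Figure D1:**
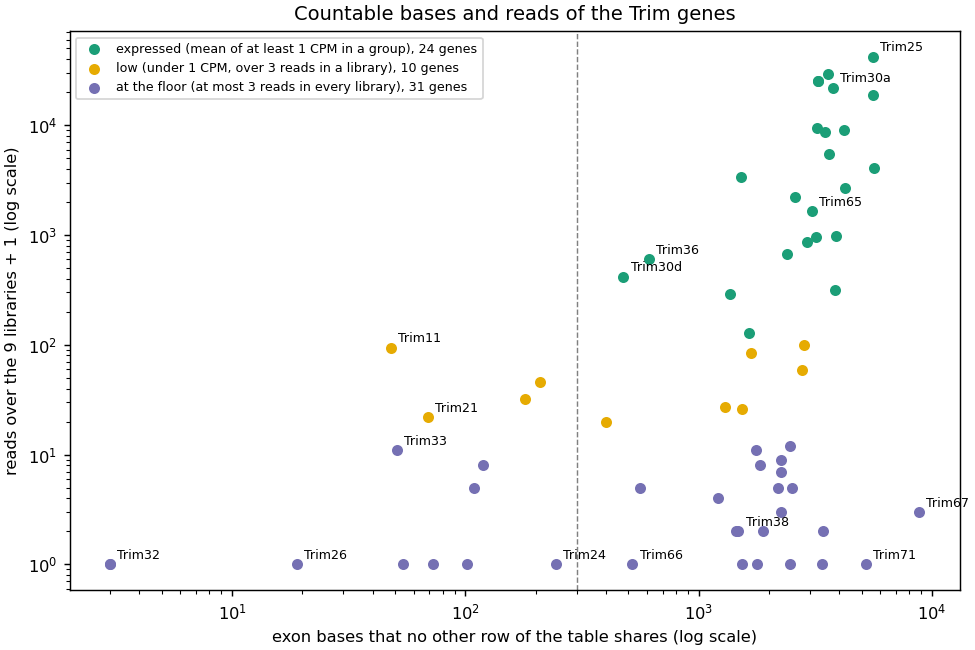
Each point is one of the 65 Trim genes, with its unshared exon bases on the x axis and its reads over the 9 libraries plus 1 on the y axis, both on log scales; the dashed line stands at 300 bases. The 24 expressed genes all lie to the right of the line, and Trim21, Trim24, Trim26, Trim32 and Trim33 lie to its left.

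BMDMs expressed 24 Trim genes, taking as expressed a mean of at least 1 CPM in at least 1 group. All 24 had at least 300 unshared bases. Trim43c met the rule only in the LPS and T0+LPS groups. A further 10 were low, with over 3 reads in some library but under 1 CPM. Trim2, Trim3, Trim17, Trim29, Trim30b and Trim34b had at least 300 unshared bases, and Trim11, Trim13, Trim21 and Trim39 had fewer. Trim2 and Trim3 were read from only 1293 of 8234 and 402 of 3277 bases, so low counts there do not show low expression. The other 31 never passed 3 reads in a library, and 21 of these had at least 300 unshared bases. Among the 21, Trim66 kept only 520 of 9649 bases and Trim45 1207 of 5801. A count of 3 corresponds to between 0.163 and 0.237 CPM by library, which covers counting error only. Genes at the floor with all exon bases unshared included Trim54, Trim55, Trim63 and Trim72, which act in striated muscle. The germline and stem cell gene Trim71 and the neuronal gene Trim67 were such genes too. Trim46, another neuronal gene, was at the floor on 561 of 3202 bases. Trim10, an erythroid gene, and Trim31 were also at the floor. Trim38, which in other studies restrains TLR3 and TLR4 signalling, had 1480 unshared bases and was at the floor too.

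Some of these genes lie together on the genome (mm10). On chromosome 7, 8 relatives lie together between 104218795 and 104507849 (Trim6, Trim34a, Trim12a, Trim34b, Trim12c, Trim30b, Trim30a and Trim30d), the mouse region that corresponds to human TRIM5. Of these, 5 were expressed, beside 24 of all 65 Trim genes and 24 of the 51 with at least 300 unshared bases. On chromosome 17, 6 genes lie in the major histocompatibility region between 36258873 and 36910217 (Trim39, Trim26, Trim15, Trim10, Trim40 and Trim31), and none was expressed. However, 4 of these had under 300 unshared bases, so only Trim10 and Trim31 could be read, too few to compare the regions. Relatives on chromosome 7 also share sequence. Of the 50-base stretches in the Trim34a transcripts, 39.8% occur in Trim34b as well, against 10.4% of those of Trim12a in other genes and 5.98% of those of Trim30a. For Trim43c on chromosome 9 the share in Trim43a and Trim43b was 42.1%. Levels of such genes are uncertain, because reads could be split between copies or lost.

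Interferon acts through the interferon-stimulated response element, and several Trim promoters hold its letters. The letters searched, GAAA and again GAAA with 2 bases between them, on either strand, were found within 250 bases before to 50 bases after a RefSeq start (GRCm38.p6, the same build as mm10) in 3.44% of 32851 mouse promoters. They were in 9 of 64 Trim promoters, of 8 genes. These were Trim2, Trim12a, Trim12c, Trim21, Trim26, Trim30a, Trim30d and Trim34a, of which 5 lie in the chromosome 7 cluster. The stretches of the 4 expressed ones are shown on the strand of the gene, with the match in capitals. Here it reads on the opposite strand, as TTTC, 2 bases and TTTC.
Trim34a: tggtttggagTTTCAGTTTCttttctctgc
Trim12a: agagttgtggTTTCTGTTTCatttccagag
Trim30a: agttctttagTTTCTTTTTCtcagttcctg
Trim30d: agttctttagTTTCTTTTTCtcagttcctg
They lie at chr7:104244457-104244486 on the plus strand for Trim34a and, on the minus strand, at chr7:104315466-104315495 for Trim12a, chr7:104465210-104465239 for Trim30a and chr7:104507871-104507900 for Trim30d. Trim30a and Trim30d carry the same 30 bases, and a second listed start of Trim30a has a match of its own. After LPS, as given below, Trim34a fell, Trim12a and Trim30a were called slightly higher, though not under library totals, and Trim30d was not called. Whether these letters bear on those changes was not tested. An NF-kappaB-like match, GGGA and TTCC with 2 bases between them on either strand, was in 1 Trim promoter, that of Trim28, and in 1.47% of all promoters. An AP-1 match, TGANTCA, was in 10 Trim promoters of 9 genes and in 7.81% of all. The motif of an LXR element of the DR4 kind, AGGTCA and again AGGTCA with 4 bases between them on either strand, was in 0 Trim promoters and in 0.0152% of all. That exact string was in only 5 of 32851 promoters. Its absence from 64 therefore cannot show that Trim genes lack LXR elements, and enhancers were not searched. Promoters were matched for 50 of the 65 genes, and a match is a string of letters, not a bound site.

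Compared per length, as CPM per kilobase of unshared exon, Trim25 led in Veh at 84.3 ± 0.579 (SD, n = 3). TRIM25 is the ligase best known for ubiquitinating RIG-I. Trim8 followed at 66.3 ± 0.448, then Trim28, the KAP1 corepressor recruited by KRAB zinc finger proteins, at 60.5 ± 1.03. Trim35 stood at 55.8 ± 1.67, and Trim30a at 38.7 ± 4.51, whose libraries overlapped those of Trim14 at 34.8 ± 2.11. After LPS this order differed. Trim35 was first at 66.1 ± 2.62, Trim28 and Trim8 overlapped at 54.7 ± 1.01 and 52.3 ± 2.84, Trim30a was at 46.3 ± 3.72, and Trim25 was next at 38.9 ± 1.01. In T0+LPS the first 5 places went to Trim35 (65.1), Trim28 (60.2), Trim8 (56.7), Trim30a (48.7) and Trim25 (42.2). Neighbours among these overlapped, so adjacent places were not resolved. Genes further apart in this order did not overlap: Trim35 lay over Trim8, Trim28 over Trim30a and Trim8 over Trim25 in every library.

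**Figure D2:**
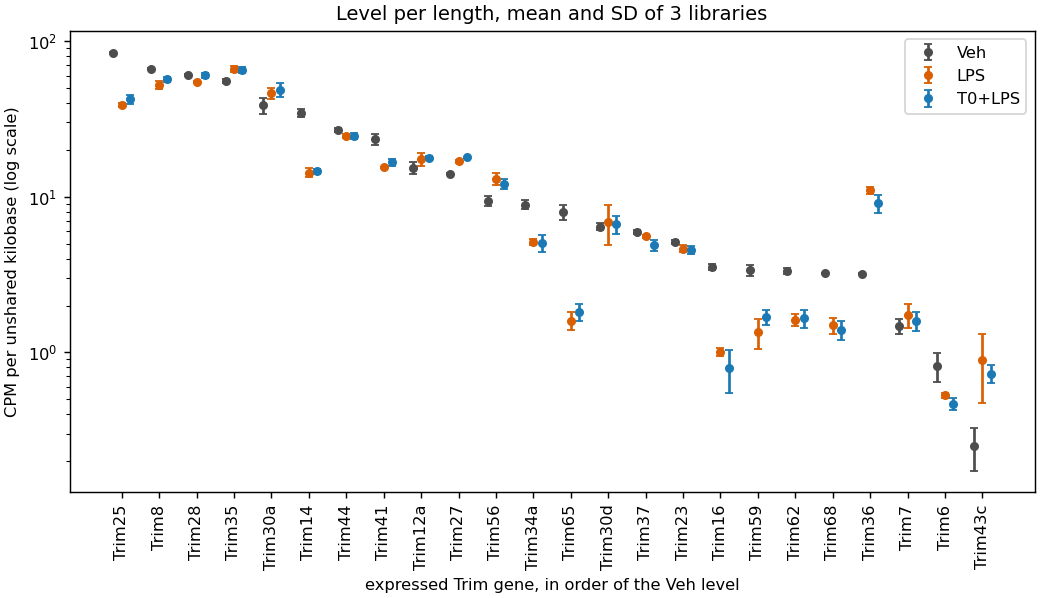
Levels of the 24 expressed Trim genes as CPM per unshared kilobase on a log scale, in order of the Veh level; points are means and bars SDs of 3 libraries, in grey for Veh, orange for LPS and blue for T0+LPS. Trim25 falls from 84.3 in Veh to 38.9 in LPS, and Trim65 and Trim16 also separate from their Veh points.

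The first comparison, LPS against Veh, asks how the family moved with the inflammatory stimulus. More Trim genes fell than rose. Of 26 genes with enough reads to test (the 24 expressed ones, Trim11 and Trim29), 12 fell and 7 rose at an adjusted p under 0.05 in the quasi-likelihood test of edgeR, adjusted by Benjamini-Hochberg over 9559 symbols. Over all symbols tested, 31.2% were called lower and 32.9% higher, and the Trim shares were 46.2% and 26.9%. At over 1 on the log2 scale, 7 Trim genes (26.9%) fell and 2 (7.69%) rose, beside 7.41% and 8.11% of all symbols. The median change was -0.10 for the Trim genes and -0.00 for all symbols. Scaling by library totals instead of TMM factors moves the median of all symbols to -0.28, and then 15 Trim genes were called lower and 3 higher (over all symbols 76.2% of calls were lower, against 48.6% with TMM). The falls described next kept their call under that scaling, while among the rises those of Trim36, Trim43c and Trim56 kept it.

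**Figure D3:**
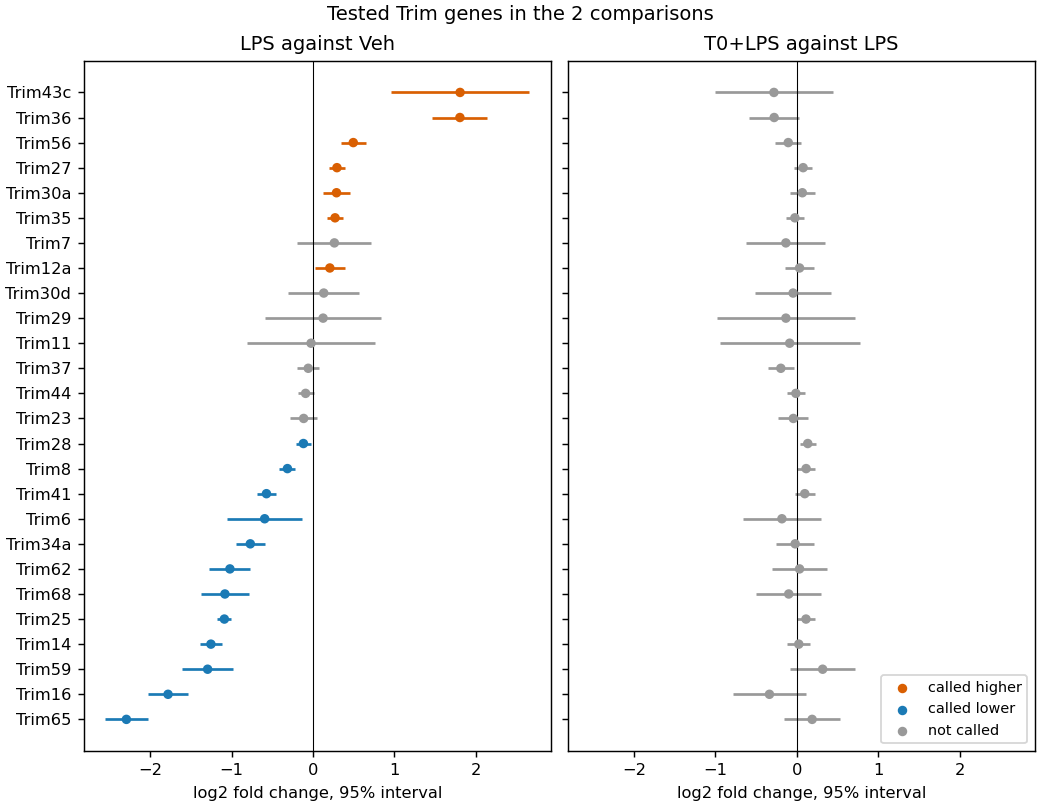
Log2 fold changes (points) with 95% intervals (lines) of the 26 tested Trim genes, LPS against Veh on the left and T0+LPS against LPS on the right, on the same axis; orange marks genes called higher, blue lower and grey not called. Changes run from -2.29 for Trim65 to 1.81 for Trim43c on the left, and from -0.34 to 0.32 on the right with no call.

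Trim genes of innate immune signalling moved in both directions. The list fixed for innate signalling held 13 Trim genes, 7 of them tested, of which 4 fell (Trim8, Trim14, Trim25 and Trim65) and 3 rose (Trim27, Trim30a and Trim56). Trim65, whose product ubiquitinates the RNA sensor MDA5, read 21.9, 27.2 and 23.8 CPM in the Veh libraries and 5.60, 4.62 and 4.37 in LPS. The groups were far apart, and the log2 fold change of -2.29 (SE 0.12, edgeR adjusted p = 7.7e-11), 4.89-fold lower, was the largest of the family. Trim25 read 472, 469 and 466 CPM in Veh and 212, 215 and 223 in LPS, with narrow spread in each group. Its log2 fold change was -1.09 (SE 0.04, edgeR adjusted p = 6.29e-13). Trim14, an adaptor that lacks a RING domain and acts on MAVS and cGAS signalling, read 106, 119 and 110 CPM in Veh and 42.9, 49.0 and 45.4 in LPS. Every LPS library was under every Veh library, and the log2 fold change was -1.25 (SE 0.06, edgeR adjusted p = 3.1e-11). Trim8, which ubiquitinates TAK1 in NF-kappaB signalling, went from 214, 214 and 216 CPM to 177, 159 and 173. That is a smaller fall, of -0.31 on the log2 scale (SE 0.05, edgeR adjusted p = 1.8e-05).

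The rises in the same list were smaller. Trim56, which acts in STING and TLR3 signalling, read 31.6, 35.1 and 36.2 CPM in Veh and 43.8, 46.3 and 51.8 in LPS. These groups did not overlap, and the log2 fold change was 0.49 (SE 0.07, edgeR adjusted p = 1.87e-05). Trim27, reported to act on TBK1, read 58.7, 59.5 and 59.3 CPM in Veh and 69.5, 72.1 and 71.7 in LPS, a log2 fold change of 0.29 (SE 0.05, edgeR adjusted p = 5.86e-05). Trim30a, a negative regulator of TLR signalling through TAB2 and TAB3, read 127, 161 and 150 CPM in Veh and 159, 180 and 185 in LPS. Here 1 LPS library lay under 1 Veh library, and replicate 1 was the lowest of both groups, at a log2 fold change of 0.29 (SE 0.08, edgeR adjusted p = 0.0032). Under library totals Trim27 and Trim30a both came to 0.01 and were not called. Of the other list members, Trim13, Trim21, Trim26 and Trim32 had too few unshared bases, and Trim31 and Trim38 were at the floor.

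In the chromosome 7 group and its relatives, 10 of 12 listed genes were in the table and 6 were tested: 2 rose (Trim12a and Trim30a), 3 fell (Trim6, Trim34a and Trim68) and Trim30d was not called. Trim34a read 21.5, 22.7 and 24.5 CPM in Veh and 12.7, 13 and 13.8 in LPS, so its groups were well separated. Its log2 fold change was -0.77 (SE 0.09, edgeR adjusted p = 7.65e-07). Trim6, which makes unanchored ubiquitin chains in interferon signalling, was low, at 2.38, 3.30 and 3.71 CPM in Veh and 2.05, 1.95 and 2.07 in LPS. Its log2 fold change was -0.59 (SE 0.22, edgeR adjusted p = 0.024), and DESeq2 did not call it (adjusted p = 0.068), nor did edgeR in 4 of the fits without 1 library (up to 0.11, without Veh replicate 3). Trim68, a neighbour of Trim21, read 7.70, 7.67 and 7.72 CPM in Veh and 3.86, 3.76 and 3.07 in LPS, a log2 fold change of -1.08 (SE 0.14, edgeR adjusted p = 4.32e-06). Trim12a moved from a mean of 23.4 to 26.5 CPM, with groups that overlapped and an edgeR adjusted p of 0.045. It turned to -0.08 under library totals and lost its call in 4 of the fits without 1 library (up to 0.25, without LPS replicate 3). Trim30d, read from 476 of its 3758 bases, had 0.13 on the log2 scale and overlapping groups.

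Outside these lists the largest fall was that of Trim16, another member without a RING domain, known for its part in autophagy of damaged lysosomes. It read 14.4, 13.1 and 13.6 CPM in Veh and 4.18, 3.90 and 3.68 in LPS. The log2 fold change was -1.78 (SE 0.12, edgeR adjusted p = 1.07e-09), or 3.43-fold lower. Of the 5 genes listed for lacking a RING domain, 4 were tested, and Trim14 and Trim16 fell while Trim29 (0.12) and Trim44 (-0.09) were not called. Trim59, a membrane-anchored member, read 9.59, 9.18 and 10.8 CPM in Veh and 3.23, 3.68 and 4.91 in LPS. Its log2 fold change was -1.29 (SE 0.15, edgeR adjusted p = 1.15e-06). The other tested members tied to organelles, Trim23 and Trim37, were not called (-0.11 and -0.06). Trim37, a peroxisomal and centrosomal ligase, averaged 33.3 CPM in Veh and 31.4 in LPS.

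Trim62 and Trim41 fell as well. Trim62, a ligase reported to act in CARD9 signalling, read 11.1, 10.3 and 10.6 CPM in Veh and 5.20, 4.70 and 5.60 in LPS. These groups did not overlap, with a log2 fold change of -1.02 (SE 0.12, edgeR adjusted p = 1.31e-06). Trim41, reported to target protein kinase C, read 81.5, 75.1 and 87.4 CPM in Veh and 54.1, 54.0 and 53.0 in LPS. Its log2 fold change was -0.57 (SE 0.06, edgeR adjusted p = 1.76e-07). Its neighbour on chromosome 11, Trim7, was not called (0.26).

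The 2 large rises were of genes at low levels. Trim36, a microtubule-associated member, read 1.95, 1.98 and 1.95 CPM in Veh and 7.10, 6.43 and 6.67 in LPS. The groups lay far apart, at a log2 fold change of 1.80 (SE 0.16, edgeR adjusted p = 4.7e-08), or 3.49-fold higher, and the gene was read from 611 of its 4851 exon bases. This rise is that of those bases and may not hold for all transcripts of Trim36. Trim36 was the one tested of 4 genes listed for the COS domain, which binds microtubules. Trim43c, a member of the Trim43 group on chromosome 9, had 9, 4 and 8 reads in Veh and 28, 12 and 17 in LPS. Its log2 fold change was 1.81 (SE 0.40, edgeR adjusted p = 0.00092), and it shares exon bases with 9330159M07Rik besides the stretches it shares with Trim43a and Trim43b. Trim43c counted as expressed only through the stimulated groups, at means of 0.408 CPM in Veh, 1.46 in LPS and 1.19 in T0+LPS. Its place among the expressed genes and its rise with LPS therefore rest on the same LPS reads. Trim35, reported to act on IRF7 and the family's highest gene per length after LPS, averaged 200 CPM in Veh and 237 in LPS, 0.27 on the log2 scale (edgeR adjusted p = 7.62e-05) but -0.01 under library totals.

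Trim28 was the sole tested gene of the 4 in the TIF1 list. It read 200, 194 and 195 CPM in Veh and 181, 175 and 176 in LPS. The fall was small, -0.12 on the log2 scale (SE 0.04, edgeR adjusted p = 0.021), and was not called without Veh replicate 1 (0.085) or 2 (0.055). None of the 4 muscle genes and none of the 4 genes with NHL repeats had enough reads to test.

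**Figure D4:**
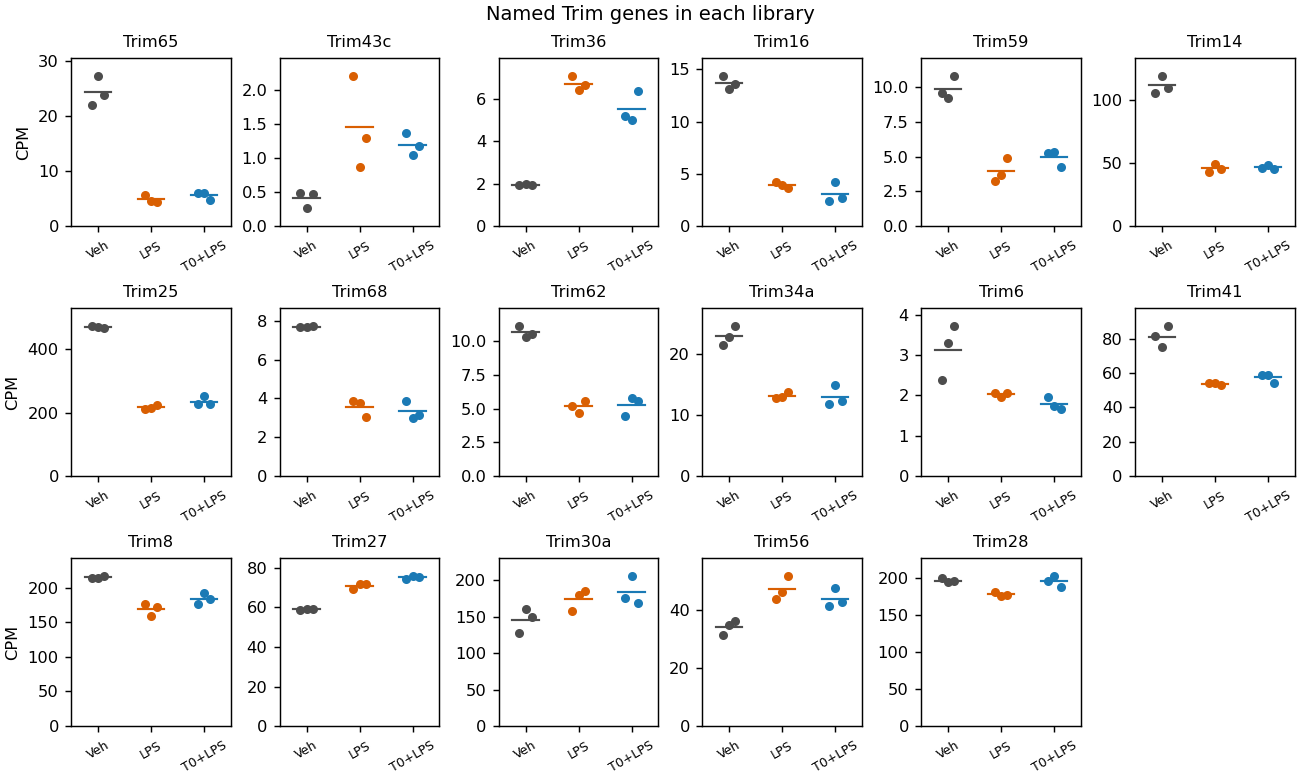
CPM of 17 named Trim genes in each library (points) with group means (lines), in the order Veh, LPS, T0+LPS; each panel has its own axis from 0. Trim65, Trim16, Trim14 and Trim25 are lower in every LPS library than in every Veh library, Trim36 is higher, and no gene shown was called in T0+LPS against LPS.

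Interferon-stimulated genes and genes listed as partners of TRIM proteins were called higher more often than lower in the same libraries. These lists were chosen with earlier results of these data known, and Ifih1 and Ddx58 are in both. Among 26 interferon-stimulated genes, 22 were tested, 13 rose and 0 fell (12 and 0 in DESeq2, 11 and 2 under library totals), beside 32.9% of all symbols called higher, with 9 not called and a median of 0.64 on the log2 scale. Libraries of one group stood apart across these genes. Of 21 tested ones with reads in every library, replicate 1 was the lowest Veh library for all 21, and replicate 2 was the highest library for 18 in Veh, 16 in LPS and 18 in T0+LPS. Isg15, for instance, read 9.54, 17.8 and 17.6 CPM in Veh. Without Veh replicate 1, 12 were called higher and 1 lower. Cxcl10, a chemokine, rose by 6.73, the GTPases Gbp2 and Mx1 by 3.80 and 2.89, Oasl1 by 2.83, the ubiquitin-like modifier Isg15 by 2.75, Rsad2 by 2.57, Ifit1 by 2.15 and Cmpk2 by 1.07. The interferon gene Ifnb1 had 0 reads in each Veh library and 15, 27 and 11 in LPS. Of 29 genes listed as substrates, partners and E2 enzymes of TRIM proteins, 22 were tested, 16 rose and 3 fell (14 and 3 in DESeq2, 11 and 5 under library totals), with a median of 0.43. Ifih1, which encodes the TRIM65 substrate MDA5, rose by 2.48 on the log2 scale, read from 147 of its 5519 exon bases. Ddx58, which encodes the TRIM25 substrate RIG-I, was not called at 0.05, beside the fall of Trim25. The autophagy receptor gene Sqstm1 rose by 2.39 and Traf3 by 2.07, read from 114 and 186 unshared bases. The kinase gene Ikbke rose by 1.97 and Tab2, tied to TRIM30a, by 1.32. Tab1 fell by 1.44, and Cbx3, a heterochromatin protein, by 0.30. Mavs, read from 319 unshared bases, fell by 1.65 on 23, 16 and 19 reads in Veh and 5, 5 and 4 in LPS.

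**Figure D5:**
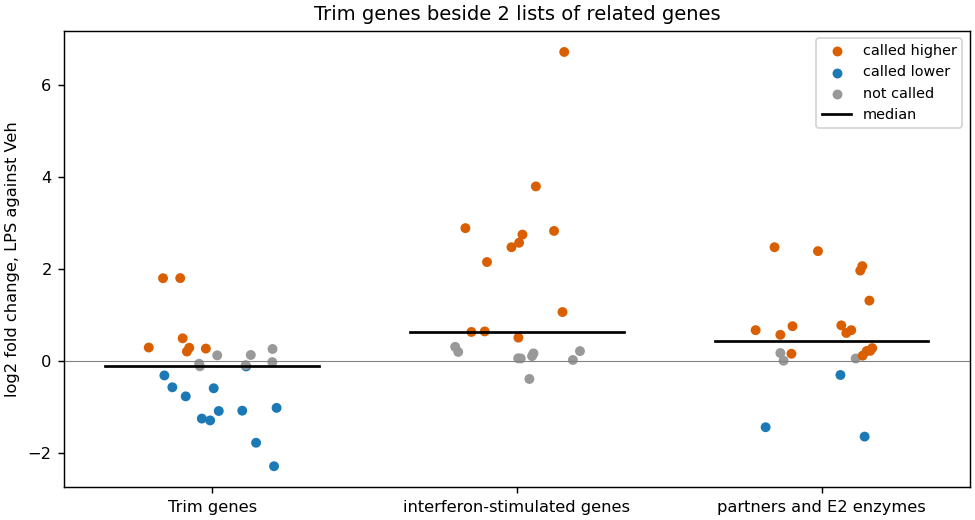
Log2 fold changes, LPS against Veh, of the tested Trim genes, interferon-stimulated genes and partner and E2 genes, 1 point a gene with sideways jitter; black lines are medians of -0.10, 0.64 and 0.43, orange marks calls higher, blue calls lower and grey no call. Ifnb1, at 0 reads in Veh, is not drawn.

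The second comparison, T0+LPS against LPS, asks whether LXR agonist changed the family in stimulated cells. No Trim gene of the 26 tested was called, by edgeR or by DESeq2. Over all 9348 symbols, edgeR called only 3.18% in either direction. At that share, having no call among 26 genes does not set the family apart. Adjusted p-values of the Trim genes ran from 0.186 to 0.963. At an unadjusted p under 0.05 there were 4 Trim genes, or 15.4%, beside 13.9% of all symbols. Fold changes ran from -0.34 to 0.32 on the log2 scale with a median of -0.02, beside 0.00 over all symbols. A p that misses the threshold does not show that levels were equal, so the intervals are given too. For the 14 Trim genes with at least 100 reads in each of the 6 libraries, every 95% interval lay within -0.36 and 0.23, that is from 0.779-fold to 1.18-fold. Over all 26 the bounds were -1.002 and 0.77.

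The 4 genes just named were small in change, and were picked out after their values were seen. Trim28 read 196, 202 and 188 CPM in T0+LPS, all over the LPS libraries, at 0.13 on the log2 scale (SE 0.05, edgeR unadjusted p = 0.013, adjusted p = 0.186). Trim37 read 27.9, 25.1 and 29.4 CPM, all under its LPS libraries of 32.2, 31.0 and 31.1, at -0.20 (SE 0.08, edgeR adjusted p = 0.233). Trim25 read 226, 252 and 226 CPM at 0.11 (edgeR adjusted p = 0.358), and Trim8 read 176, 192 and 184 CPM at 0.11 (edgeR adjusted p = 0.355). The groups did not overlap for 6 Trim genes (Trim25, Trim27, Trim28, Trim36, Trim37 and Trim41), or 23.1%, beside 19.1% of all symbols.

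No gene with the largest LPS changes was called with T0, but several had few reads and wide intervals. Trim65 read 5.98, 5.92 and 4.75 CPM there, overlapping LPS, at 0.19 on the log2 scale. Trim36 read 5.22, 5.02 and 6.41 CPM, under all 3 LPS libraries, at -0.28 with an edgeR adjusted p of 0.423. Trim16 read 2.42, 4.18 and 2.69 CPM at -0.34, the lowest value of the family, and Trim59 read 5.22, 5.30 and 4.27 CPM at 0.32, the highest. Both overlapped LPS. Trim14 (0.02), Trim62 (0.03), Trim34a (-0.02), Trim30a (0.07) and Trim56 (-0.11) had T0+LPS libraries that overlapped those of LPS. None of the 22 interferon-stimulated genes tested and none of the 20 partner genes tested was called with T0 in edgeR or DESeq2, with 2 and 3 at an unadjusted p under 0.05 in edgeR. Over all symbols edgeR called 3.18%, and 13.9% had an unadjusted p under 0.05, so neither list is set apart by this. With the replicate number as a block, edgeR called Ifit1 and Isg15 lower, 2 of the 22. The share of all symbols called in that fit is not given here, so this count cannot be judged against it. Both comparisons use the same LPS libraries, so their changes are not independent of each other.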

How the data were processed

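Per the labels, the authors trimmed reads with cutadapt, aligned them to mm10 with HISAT2 and made whole-number read counts per RefSeq transcript with featureCounts of Subread. The deposited tables of the authors' own comparisons (fold changes and adjusted p-values) were not used. Counts of rows with one symbol were summed. Each comparison was fitted to its 6 libraries over all symbols with edgeR 4.0.16 in R 4.3.3 (TMM factors, filterByExpr, quasi-likelihood test, Benjamini-Hochberg adjustment, calls at 0.05). The fit was also run on simulated counts in which few symbols changed, as many up as down. Such counts cannot test the choice of scaling where many symbols change, as with LPS. CPM levels use TMM factors over all 9 libraries. DESeq2 1.42.0, library totals, other filters, rows as the unit, replicate blocks and leaving out each library were alternatives. Over all symbols with enough reads, same-numbered libraries did not deviate together (correlations from -0.014 to 0.046). The numbers were therefore not taken as pairs in the main fits. Interferon-stimulated genes differed: replicate 2 was the highest library for 18 of 21 in Veh, 16 in LPS and 18 in T0+LPS. The reason was not tested. Unshared bases were computed from the exon coordinates of the table. Stretches of 50 bases were compared in GENCODE M21 transcripts, and promoters were those of RefSeq. Replicates within groups differed by more than counting noise (chi-square per degree of freedom from 2.75 to 7.18). Values in every library are given for the 12 Trim genes with the largest called LPS changes and for expressed members of the innate signalling and TIF1 lists. The members and lists were chosen with earlier results of these data known. A p-value measures the spread between these cultures.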

Additional observations from a re-analysis of the deposited data

How the results depend on the processing

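The count of Trim genes called higher with LPS fell from 7 to 3 when library totals replaced TMM factors, while 15 were called lower, and calls over all symbols went from 3148 higher and 2981 lower to 1694 higher and 5411 lower. Under that scaling Trim12a came to -0.0759 and Trim35 to -0.0115 on the log2 scale, both reversed. The cause was not tested. Leaving out 1 library at a time gave 6 to 7 Trim genes higher and 10 to 13 lower with LPS, 0 called with T0, and 24 expressed. The replicate block gave 7 higher and 12 lower in edgeR, 6 higher and 10 lower in DESeq2, and 0 with T0 in both. Trim6 lost its call under the DESeq2 block (adjusted p = 0.21) and without Veh replicate 2 (0.066) or 3 (0.11) or LPS replicate 1 (0.057) or 2 (0.062). Trim12a lost its call in DESeq2 (0.085), with no filter (0.055), under the DESeq2 block (0.19), and without Veh replicate 1 (0.14) or 2 (0.14) or LPS replicate 1 (0.066) or 3 (0.25). Trim28 lost its call under the DESeq2 block (0.14). Other alternatives left the calls of the Trim genes described in full as they were, apart from Trim27 and Trim30a under library totals, Trim6 in DESeq2, and Trim28 without Veh replicate 1 or 2. Among interferon-stimulated genes, the edgeR block called 15 higher and 1 lower with LPS and 2 lower with T0 (Ifit1 and Isg15), as no filter did with T0, and leaving out 1 library called 12 to 15 higher with LPS. With T0, Bst2 was called higher without LPS replicate 2, Isg15 lower without LPS replicate 3 and Ifit1 lower without T0+LPS replicate 2. Partner genes called higher with LPS ranged from 13 to 15 without 1 library. The shares of all symbols called in the block, no-filter and leave-out fits are not given here. Few reads limit Trim43c and Trim29, and 14 Trim genes, Trim11 among them, had under 300 unshared bases.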

Other observations

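Genes of the same protein architecture with other symbols mostly went untested. Of Pml, Mefv, Mid1, Mid2, Bspry and Rnf207, 1 was tested. Mefv, which encodes pyrin and lies in the inflammasome pathway, had on 187 unshared bases 1, 3 and 2 reads in Veh and 55, 49 and 40 in LPS, a log2 fold change of 4.87 (SE 0.36, edgeR adjusted p = 6.3e-09). Its Veh reads were at the floor, so Mefv entered this comparison through its LPS reads. In T0+LPS it had 84, 92 and 62 reads, 0.63 on the log2 scale over LPS and not called (edgeR adjusted p = 0.11). Pml, the nuclear body gene, had 138 of 5377 exon bases unshared, held between 5 and 18 reads in a library and was not tested.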
